A study of Mus musculus with 40 samples.

Results

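The comparison described here asked what was seen in the spinal cord when the cannabinoid receptor antagonist SR141714A was added to SUEHP in MPTP-treated mice. It set the 4 spinal cord libraries of mice given MPTP, SUEHP and the antagonist (MPTP-SU+S) against the 4 libraries of mice given MPTP and SUEHP (MPTP-SU), so 8 of the 40 libraries of the series. The members were taken from the sample titles and from no measured value. The other 12 spinal cord libraries, 4 in each of 3 groups, were saline controls without MPTP (Con), mice given MPTP and saline at the acupuncture point (MPTP-Veh), and mice given MPTP, SUEHP and the inhibitor T0070907 (MPTP-SU+T). The remaining 20 libraries were from the midbrain of the same 5 treatments.

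All mice were male C57BL/6N, 8 weeks old at the start. MPTP, a toxin that kills dopaminergic neurons, was injected intraperitoneally at 20 mg/kg, 4 times at intervals of 2 h, in every group except Con. SUEHP (SU-Eohyeol pharmacopuncture) is an extract of herbs and deer antler injected at an acupuncture point of the hind limb, GB34, in 4 sessions that began after MPTP. Group descriptions in the study's figure legends give the point GB35 for MPTP-SU+S. Its methods name only GB34 and a gluteal control point, and a legend places SUEHP at GB34 after the antagonist. Whether the injection site was the same in both groups is not certain, and a different site and the antagonist could not be told apart. The antagonist was given intraperitoneally at 3 mg/kg and T0070907 at 5 mg/kg. The titles spell the antagonist SR141714A, and the study's methods spell it SR141716A, the name of a selective antagonist of the cannabinoid receptor CB1. No group received the antagonist without SUEHP or without MPTP, and whether the MPTP-SU mice received the antagonist's solvent is not stated in the sources used here, so the antagonist and its solvent cannot be told apart. The segment of the cord that was sequenced and the hour of tissue collection are likewise not stated, and the labels do not say that each library came from a different mouse, so p-values measure the spread between these libraries.

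CB1 is a Gi/o-coupled receptor on the axon terminals of neurons. Lipid messengers made by the postsynaptic cell, chiefly 2-arachidonoylglycerol and anandamide, travel back across the synapse, bind CB1 and reduce transmitter release. In the cord, CB1 sits in the dorsal horn, the first relay of pain signals, on interneurons and on the endings of primary sensory fibres. An antagonist blocks the receptor protein, and messenger RNA measures only what follows from that in transcript levels.

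The 8 libraries held 15652742 to 16516202 counts each, and 16682 of 40213 gene symbols were tested. Levels are given as CPM, a gene's counts relative to the library's total, scaled between libraries by the TMM method, and ± is the SD over 4 libraries. No library of the 8 duplicated another. Pairs of libraries were compared by chi-square per degree of freedom, which is larger for less alike libraries. It ran from 3.89 to 10.3 across the 2 groups. Within MPTP-SU+S, replicate 1 was at 13.4 and 15.0 from replicates 3 and 4, which were at 2.85 from each other, so the libraries of this group were not equally alike. The spinal cord identity was checked with Hox genes, which set position along the body axis and are silent in the midbrain's own region of the brain. Of 30 axial Hox genes 29 were tested, their summed level was 924 to 988 CPM across the 8 libraries, and none differed between MPTP-SU+S and MPTP-SU at an unadjusted p under 0.05. In whole tissue, fewer cells of a type and less RNA per cell cannot be told apart.

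Adding the antagonist was accompanied by no transcript change that passed the test. Of the 16682 genes, 0 (0% of those tested) differed between MPTP-SU+S and MPTP-SU at an adjusted p under 0.05 in edgeR's quasi-likelihood test, with or without the 1.5-fold threshold. The smallest adjusted p was 0.359, for Dbp. At an unadjusted p under 0.05 there were 916 genes, 457 higher (2.74%) and 459 lower (2.75%), against 834.1 that the threshold alone would pass. Of these, 174 were also past 1.5-fold (1.04% of tested genes), 92 higher (0.551%) and 82 lower (0.492%). The 2 groups of libraries did not overlap for 699 genes (4.19%), 325 with every MPTP-SU+S library higher (1.95%) and 374 with every one lower (2.24%). DESeq2 also called 0 genes past the fold threshold, with 773 at an unadjusted p under 0.05, and limma-voom called 0, with 906.

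The precision of the comparison depended on the level of the gene and was high from 10 CPM up. The median half-width of the 95% interval was 0.20 on the log2 scale, and for 77.5% of genes the whole interval lay within 1.5-fold of no difference. That share was 98.8% of genes between 10 and 100 CPM and 99.4% of those over 100 CPM, but 59.8% between 1 and 10 CPM and 0.24% under 1 CPM. For most genes under 1 CPM the data therefore do not limit the difference to less than 1.5-fold.

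The antagonist's own target was measured at similar levels in both groups. Cnr1, which encodes CB1, was at 46.5, 43.7, 45.3 and 44 CPM in the 4 MPTP-SU libraries and at 40.6, 49.8, 51.3 and 45.8 CPM in the 4 MPTP-SU+S libraries. The groups overlapped, with MPTP-SU+S holding both the lowest and the highest value. The log2 difference was 0.06 (95% interval -0.09 to 0.22; unadjusted p = 0.413). Cnr2, the cannabinoid receptor of immune cells, held 16 counts over all 8 libraries and was not tested.

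Of 19 genes on a list of endocannabinoid receptors, enzymes and carriers 15 were tested, and 1 was at an unadjusted p under 0.05 (6.67% against 5.49% of all tested genes). The median log2 difference of the 15 was 0.00, as it was over all tested genes, and for 14 of them the interval lay within 1.5-fold. The 1 gene was Cnrip1, which encodes a protein that binds the tail of CB1. It was at 29.9, 25.7, 28.8 and 28.8 CPM in MPTP-SU and at 31.1, 30.8, 32.8 and 34.0 CPM in MPTP-SU+S, with every MPTP-SU+S library above every MPTP-SU library. The log2 difference was 0.18 (95% interval 0.07 to 0.30; adjusted p = 0.897). The genes for the enzymes that make 2-arachidonoylglycerol and anandamide, Dagla and Napepld, had log2 differences of -0.01 and 0.12. Those for the enzymes that break them down, Mgll and Faah, had -0.12 and -0.02. Of 28 genes for Gi/o signalling partners of CB1, 1 was at an unadjusted p under 0.05 (3.57%), and all 28 intervals lay within 1.5-fold.

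Pparg, the nuclear receptor that the other inhibitor of the study blocks, was low in this tissue. It was at 1.31, 1.38, 2.12 and 1.61 CPM in MPTP-SU and at 1.03, 1.16, 1.10 and 1.21 CPM in MPTP-SU+S. The groups did not overlap, but the log2 difference of -0.52 did not pass the test (unadjusted p = 0.0369, adjusted p = 0.899). Of 23 tested PPAR receptors and target genes 8 had positive and 15 negative differences. Pparg was the 1 with an unadjusted p under 0.05 (4.35% against 5.49% of all tested genes).

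Genes linked to neuronal activity, stress kinases, glia and catecholamine synthesis were looked up by name, and none passed the test. Fos, an immediate early gene switched on by neuronal firing, was at 7.80, 10.3, 12.3 and 9.44 CPM in MPTP-SU and at 10.7, 11.9, 6.77 and 11.7 CPM in MPTP-SU+S, with a log2 difference of 0.05 (95% interval -0.39 to 0.48) that turned negative without MPTP-SU replicate 1 or without MPTP-SU+S replicate 2 or 4. Mapk14, which encodes the main p38 kinase of stress signalling, differed by 0.01 (95% interval -0.12 to 0.13), a sign that turned with library size alone as the scale and without MPTP-SU replicate 1 or 3 or MPTP-SU+S replicate 3. Gfap, the intermediate filament of astrocytes, differed by 0.02 (95% interval -0.14 to 0.18), with a sign that turned without MPTP-SU replicate 1 or 2 or MPTP-SU+S replicate 1. Bdnf, a neurotrophin of sensory fibres and dorsal horn, differed by -0.18 (95% interval -0.43 to 0.07), and Itgam, the CD11b subunit of microglia, by -0.11 (95% interval -0.30 to 0.08). Th, which encodes the enzyme of dopamine and noradrenaline synthesis, was at 3.08 ± 0.65 CPM in MPTP-SU and 2.66 ± 0.35 CPM in MPTP-SU+S. All of these measure RNA, not protein or phosphorylation.

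**Figure D1:**
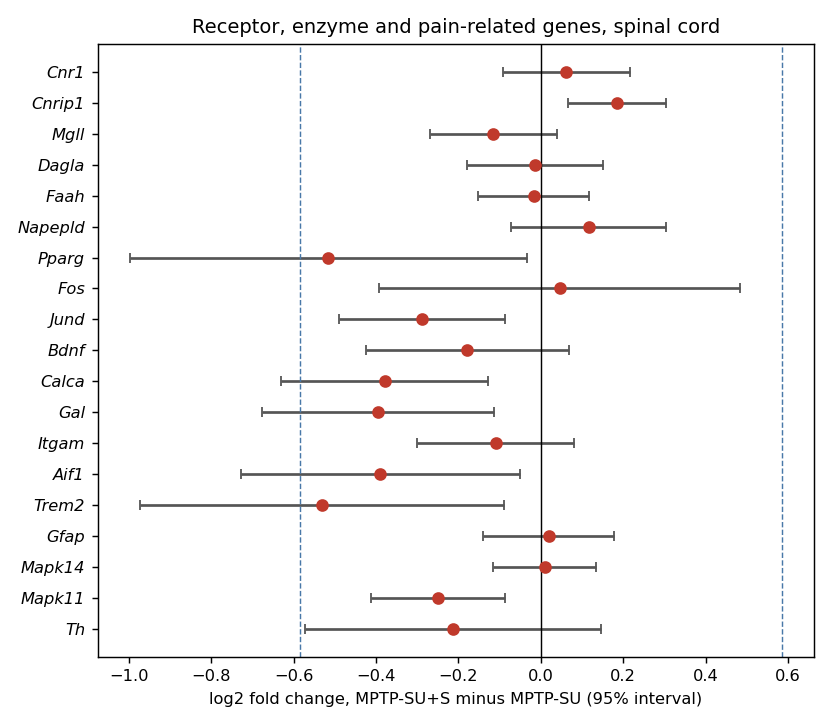
Log2 difference between MPTP-SU+S and MPTP-SU in the spinal cord for 19 genes (points) with 95% intervals (bars), 4 libraries a group; dashed lines mark 1.5-fold. The intervals of Cnr1, Dagla, Faah, Gfap and Mapk14 cross 0 and lie within 1.5-fold, while those of Pparg, Trem2, Calca and Gal are among the ones that extend below the lower dashed line.

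The group that stood out by its unadjusted p-values was the circadian clock. In this system the activators CLOCK, BMAL1 and NPAS2 switch on the Per, Cry and Nr1d genes and the PAR-bZIP factors DBP, TEF and HLF. The PER and CRY proteins then shut the activators down, and NR1D1 and NR1D2 repress Bmal1 and Npas2, so that the arms peak at different hours. Of 21 tested clock genes, 9 were at an unadjusted p under 0.05 (42.9% against 5.49% of all tested genes), 7 higher and 2 lower in MPTP-SU+S. The count was 5 to 8 with 1 library left out, lowest without MPTP-SU replicate 3, and 5 with library size alone as the scale. The median log2 difference of the list was 0.07, against 0.00 over all tested genes. None passed adjustment over all genes, and the list was written with earlier results of these data known.

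Dbp, an output factor of the clock, had the smallest p in the tissue. It was at 27.6, 27.9, 26.7 and 30.4 CPM in MPTP-SU and at 41.9, 37.4, 41.0 and 36.7 CPM in MPTP-SU+S. Every MPTP-SU+S library was above every MPTP-SU library, and the means were 28.1 ± 1.6 and 39.3 ± 2.6 CPM. The log2 difference was 0.48 ± 0.09 (SE; 95% interval 0.29 to 0.67), below the 1.5-fold threshold, with an adjusted p of 0.359. Its adjusted p fell to 0.0170 with the 8 libraries fitted alone, to 0.0036 in DESeq2 and to 0.0042 without the low-count filter, so the call on Dbp depended on the fit while its fold change did not.

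Nr1d1, which encodes the repressor REV-ERBα, was at 74.9, 58.7, 64.5 and 68.1 CPM in MPTP-SU and at 77.1, 90.9, 91.8 and 80.2 CPM in MPTP-SU+S. The groups again did not overlap, and the log2 difference was 0.35 ± 0.09 (SE; adjusted p = 0.770). Its paralogue Nr1d2 went from 122 ± 5 to 138 ± 8 CPM, a log2 difference of 0.18 with no overlap. Hlf, the third PAR-bZIP factor named above, went from 71.8 ± 4.7 to 78.8 ± 1.8 CPM, also with no overlap. Ciart, a repressor of CLOCK and BMAL1, was at 7.08 ± 0.87 CPM in MPTP-SU and 8.68 ± 0.76 CPM in MPTP-SU+S, and Per2 at 14.6 ± 1.4 and 16.8 ± 1.5 CPM. Bhlhe40, another repressor of the loop, had a log2 difference of 0.13.

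The 2 genes lower in MPTP-SU+S were both on the activator arm. Bmal1 was at 18.3, 17.8, 19.4 and 15.9 CPM in MPTP-SU and at 14, 14.9, 16.9 and 15.4 CPM in MPTP-SU+S, a log2 difference of -0.23 (unadjusted p = 0.0061). Npas2 was at 14, 13.5, 14.3 and 13.6 CPM in MPTP-SU and at 13.7, 10.7, 12.4 and 10.5 CPM in MPTP-SU+S, a log2 difference of -0.23 (unadjusted p = 0.0198). For both, 1 or more libraries of the groups overlapped. Per1 had a log2 difference of 0.12 and Cry1 of -0.11, with unadjusted p-values of 0.325 and 0.158.

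The other groups give the levels a frame. Dbp was at 34.8, 30.2, 24.2 and 26.3 CPM in MPTP-Veh, at 30.4, 31.7, 38 and 34.2 CPM in Con, and at 42, 38.9, 43.3 and 46.3 CPM in MPTP-SU+T. MPTP-SU+S thus lay above MPTP-Veh, overlapped Con at its lower end and overlapped MPTP-SU+T. Against MPTP-Veh, 9 of the 21 clock genes were again at an unadjusted p under 0.05 (4.56% of all tested genes were), 7 higher (2.09% of all were) and 2 lower (2.48%), a comparison that shares the MPTP-SU+S libraries with the first. MPTP-SU+T against MPTP-SU, which shares the MPTP-SU libraries, also gave 7 higher and 2 lower (12.1% of all tested genes were at an unadjusted p under 0.05, 6.07% higher and 6.01% lower), and Dbp passed the DEG criteria there, with a log2 difference of 0.60 and an adjusted p of 0.0142. Tested directly between the 2 antagonist groups, Dbp differed by -0.12 (adjusted p = 0.469) and 0 of the 21 clock genes differed at an adjusted p under 0.05, although 7 had an unadjusted p under 0.05, 1 higher and 6 lower (21.7% of all tested genes did, 10.7% higher and 11.1% lower). Summed over the 21 genes the level was 1110 to 1159 CPM in MPTP-SU, 1188 to 1228 in MPTP-SU+S, 1231 to 1254 in MPTP-SU+T, 1122 to 1171 in MPTP-Veh and 1135 to 1237 in Con.

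The midbrain gave no independent call for these genes. In 4 against 4 midbrain libraries Dbp was at 36.7 to 48.9 CPM in MPTP-SU and at 50.8 to 60.4 CPM in MPTP-SU+S, without overlap and with a log2 difference of 0.31 ± 0.17 (SE; unadjusted p = 0.0867, adjusted p = 1.0). None of the 21 clock genes had an unadjusted p under 0.05 there, but only 274 of all 16629 tested midbrain genes did. The absence of clock genes among so few does not set this list apart from other genes. The median log2 difference of the clock genes was -0.03. The midbrain libraries were more variable, with a common dispersion of 0.051 against 0.0071 in the spinal cord.

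CLOCK and BMAL1 bind the E-box CACGTG, so the promoters of the clock genes were searched for those 6 letters, which read the same on both strands. The windows were 300 bases, from 250 before to 50 after each start site in RefSeq (GRCm38.p6), and 18 of the 21 genes had one. The letters were found in 5 of these 18 clock genes, against 8.09% of the 27025 symbols in the table and 7.15% of its 32851 promoters. Of the 9 genes with an unadjusted p under 0.05, 7 had a window and Ciart alone held the letters, at 3 places. The matches are printed 5′ to 3′ on the gene's strand with the E-box in capitals, to show where among the clock genes the motif stood.
Ciart, chr3:95882327-95882356, minus strand: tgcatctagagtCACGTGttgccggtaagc
Ciart, chr3:95882269-95882298, minus strand: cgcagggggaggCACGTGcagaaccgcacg
Ciart, chr3:95882255-95882284, minus strand: cgtgcagaaccgCACGTGtctgggaggggg
Per1, chr11:69098771-69098800, plus strand: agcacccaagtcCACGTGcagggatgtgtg
Cry1, chr10:85185097-85185126, minus strand: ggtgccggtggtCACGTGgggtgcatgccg
Bhlhe41, chr6:145865556-145865585, minus strand: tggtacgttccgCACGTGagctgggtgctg
Tef, chr15:81802534-81802563, plus strand: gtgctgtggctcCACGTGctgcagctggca
Tef, chr15:81811264-81811293, plus strand: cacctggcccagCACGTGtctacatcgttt
The 3 Ciart matches began 116, 58 and 44 bases before the start site. Of the other 4 genes Bhlhe41 had a log2 difference of 0.10 (unadjusted p = 0.0528) and Tef of 0.06 (unadjusted p = 0.222). Binding was not measured, and E-boxes can lie outside these windows.

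**Figure D2:**
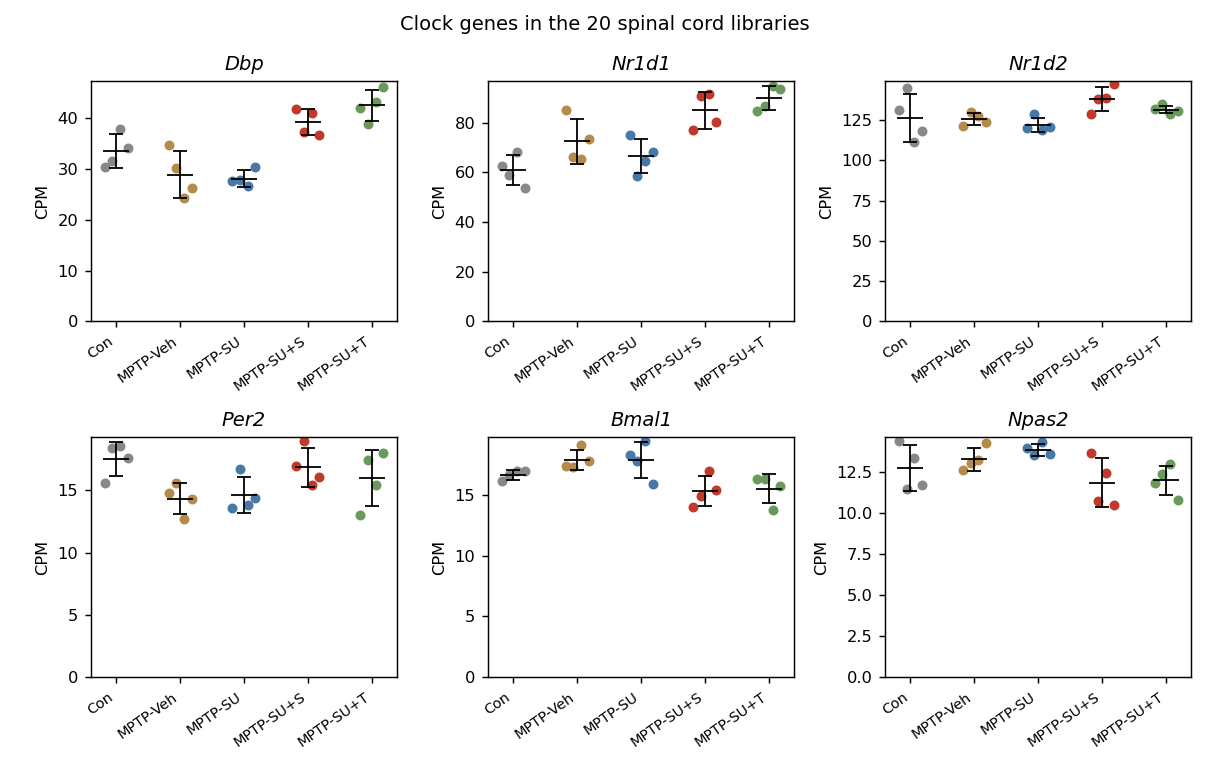
CPM of 6 clock genes in each spinal cord library (points) of the 5 groups, with the mean and SD (bars). Dbp, Nr1d1 and Nr1d2 are higher in all 4 MPTP-SU+S libraries than in all 4 MPTP-SU libraries, and the Bmal1 and Npas2 means are lower with some overlap.

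Outside the clock, several genes had p-values nearly as small. Timm50, which encodes a subunit of the mitochondrial import machinery, was at 14.7, 13.5, 12.9 and 12.0 CPM in MPTP-SU and at 10, 11.0, 9.22 and 8.84 CPM in MPTP-SU+S (log2 difference -0.44, adjusted p = 0.676). Usp35, a deubiquitinase gene, was at 15.8, 16.2, 15.8 and 18 CPM in MPTP-SU and at 12.7, 12.5, 12.3 and 14.1 CPM in MPTP-SU+S (log2 difference -0.35, adjusted p = 0.676). In both, every MPTP-SU+S library was lower than every MPTP-SU library. Tipin, whose product protects replication forks, was higher without overlap, at 14.7 ± 0.8 and 18 ± 1.1 CPM (log2 difference 0.28, adjusted p = 0.770). Flt1, a VEGF receptor of vessels, was lower without overlap, at 124 ± 7 and 110 ± 3 CPM (log2 difference -0.18, adjusted p = 0.770). Timm50, Usp35, Tipin, Flt1 and Scara3 were named after their values were seen.

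Among genes past 1.5-fold without overlap, the higher ones named here were low in abundance, as were the lower ones given below. Mpzl2, a cell adhesion gene, was at 1.33 ± 0.40 CPM in MPTP-SU and 2.74 ± 0.59 CPM in MPTP-SU+S, a log2 difference of 1.04. Ranbp3l was at 3.20 ± 0.70 and 5.90 ± 1.28 CPM, Slc26a7, an anion exchanger gene, at 1.56 ± 0.36 and 2.81 ± 0.87 CPM, and the predicted gene Gm7240 at 0.83 ± 0.25 and 1.96 ± 0.31 CPM. Acot3, which encodes a peroxisomal acyl-CoA thioesterase, was at 0.76 ± 0.10 and 1.38 ± 0.18 CPM. Klf5, a zinc-finger factor gene, was at 1.75, 2.00, 1.82 and 2.11 CPM in MPTP-SU and at 5.58, 2.77, 2.19 and 2.73 CPM in MPTP-SU+S, so 1 library carried most of the difference.

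The lower ones included Adprs, which encodes an ADP-ribose hydrolase, at 4.18, 4.64, 4.55 and 5.59 CPM in MPTP-SU and 2.97, 2.83, 3.03 and 3.24 CPM in MPTP-SU+S (log2 difference -0.65, adjusted p = 0.890). Cox4i2, an isoform of a cytochrome oxidase subunit found in vessels, was at 1.89 ± 0.53 and 0.98 ± 0.14 CPM. Des, the intermediate filament of muscle and pericytes, was at 3.27 ± 0.21 and 1.92 ± 0.47 CPM. Tmem81 was at 3.00 ± 0.40 and 1.69 ± 0.60 CPM, and Aldh1a7, an aldehyde dehydrogenase gene, at 1.77 ± 0.40 and 1.03 ± 0.26 CPM. None of these passed the test.

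A total of 33 gene lists was examined, 17 of pathways and 16 of cell types and tissues, and 0 of them held a DEG. Their medians ran from -0.96 (skeletal muscle) to 0.30 (leptomeningeal fibroblasts) on the log2 scale.

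**Figure D3:**
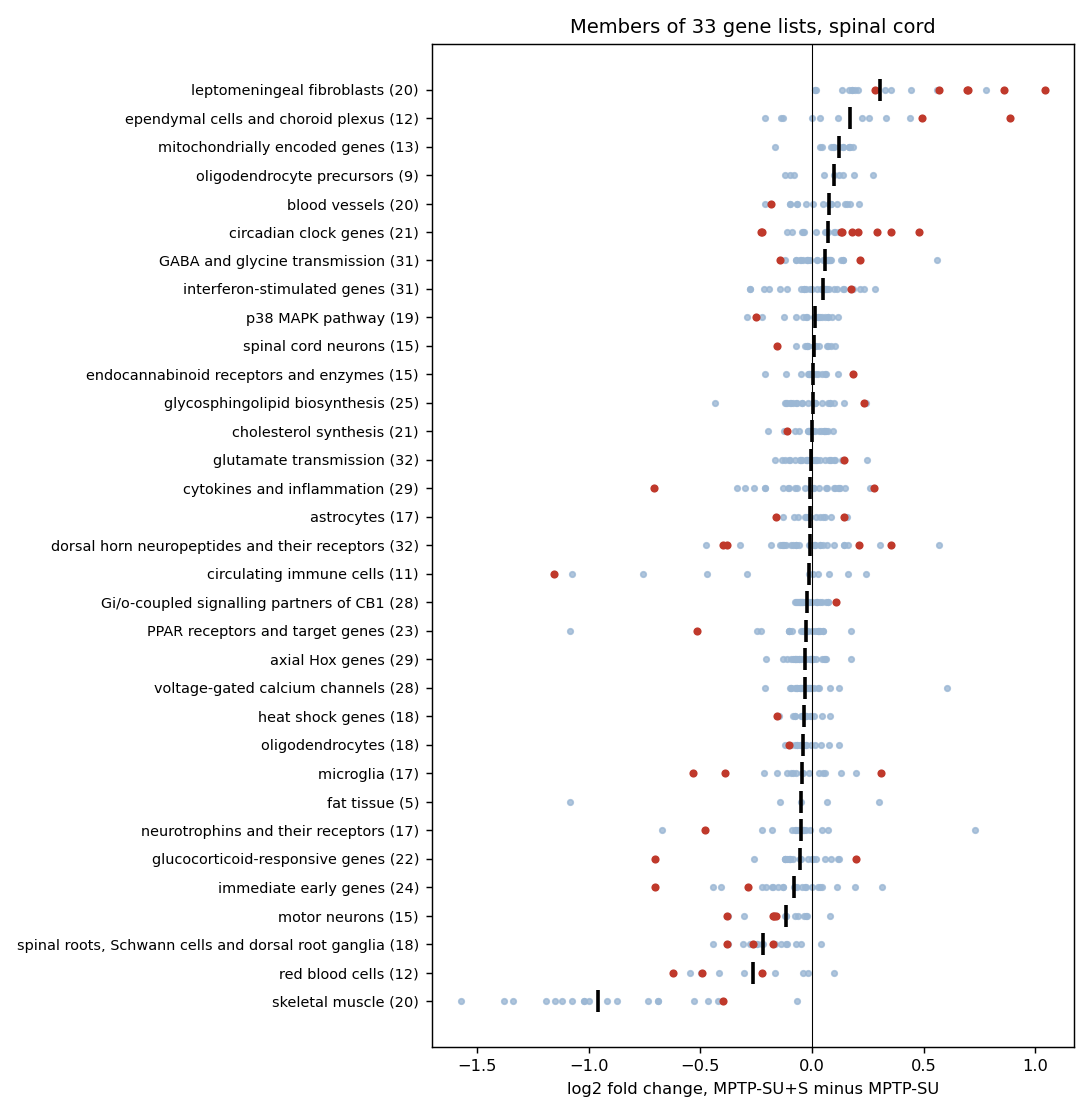
Log2 difference between MPTP-SU+S and MPTP-SU for each tested member (points; red, unadjusted p under 0.05) of 33 lists, with the list's median (black bar) and the number of members tested in parentheses. Most medians lie near 0, and the clock list holds 9 red points, more than any other list.

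The neuropeptides of the dorsal horn carry and modulate pain signals. Of 32 tested neuropeptide and receptor genes 4 were at an unadjusted p under 0.05 (12.5% against 5.49% of all tested genes). Of these, 2 were higher and 2 lower. Calca, which encodes CGRP of pain fibres and motor neurons, was at 16.2, 23.8, 16.8 and 14.7 CPM in MPTP-SU and at 13.5, 13.6, 14.4 and 13.4 CPM in MPTP-SU+S. Every MPTP-SU+S library was lower, and the log2 difference was -0.38 (adjusted p = 0.898). Gal, which encodes galanin, was at 5.44 ± 0.70 and 4.13 ± 0.28 CPM, also without overlap. Calca was at 10.8 to 13.8 CPM in MPTP-Veh, so for this gene MPTP-SU was the higher group.

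Transmission genes differed little. Of 31 genes of GABA and glycine transmission 2 were at an unadjusted p under 0.05 (6.45% against 5.49% of all tested genes). Of the 2, 1 was higher and 1 lower. Slc1a3, the glial glutamate transporter gene, had a log2 difference of 0.14 and was the 1 among 32 genes of glutamate transmission (3.13%). Of 28 voltage-gated calcium channel genes 0 were at an unadjusted p under 0.05. Among neurotrophins and their receptors it was 1 of 17 (5.88%), Ngfr, the low-affinity receptor gene, at 4.95 ± 1.34 and 3.54 ± 0.88 CPM.

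Immediate early and inflammatory genes showed scattered differences. Among 24 immediate early genes 2 were lower at an unadjusted p under 0.05 (8.33% against 2.75% of all tested genes). Jund, an AP-1 subunit gene, was at 55.0, 61.5, 64.0 and 67.5 CPM in MPTP-SU and at 54.8, 51.7, 50.8 and 45.8 CPM in MPTP-SU+S (log2 difference -0.29, adjusted p = 0.899), and Maff, a small MAF factor gene, at 0.93 ± 0.14 and 0.57 ± 0.15 CPM. Of 29 cytokine and inflammation genes 2 were at an unadjusted p under 0.05 (6.90% against 5.49% of all tested genes). Socs3, a feedback inhibitor of cytokine signalling, was at 2.22 ± 0.71 and 1.36 ± 0.21 CPM. Il1r1, the interleukin-1 receptor gene, was at 6.16 ± 0.23 and 7.48 ± 0.42 CPM. In the p38 list Mapk11, the gene of p38β, was the 1 of 19 (5.26%), at 20.3, 20.0, 20.0 and 20.9 CPM in MPTP-SU and 17.7, 15.5, 18 and 17 CPM in MPTP-SU+S (log2 difference -0.25, adjusted p = 0.897). Interferon-stimulated genes gave 1 of 31 (3.23%), Ifit2, with a log2 difference of 0.17.

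The remaining pathway lists gave counts of the same order. Glucocorticoid-responsive genes gave 2 of 22 (9.09% against 5.49% of all tested genes). They were the mineralocorticoid receptor gene Nr3c2, with a log2 difference of 0.20, and Lcn2, which encodes lipocalin 2, with -0.70. Heat shock genes gave 1 of 18 (5.56%), the co-chaperone gene Bag3, with -0.16. Glycosphingolipid synthesis gave 1 of 25 (4%), the sialyltransferase gene St6galnac3, at 23.7 ± 0.8 and 27.9 ± 0.7 CPM, and cholesterol synthesis gave 1 of 21 (4.76%).

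The lists of cell type markers held the lowest and the highest median, though no gene in them passed the test. All 20 leptomeningeal fibroblast genes, markers of the membranes around the cord, had positive differences, and 6 were higher at an unadjusted p under 0.05 (30% against 2.74% of all tested genes). Igf2, a growth factor gene, was at 64.1, 72.4, 95.4 and 75.7 CPM in MPTP-SU and at 174, 144, 72.7 and 107 CPM in MPTP-SU+S. Fmod, a matrix proteoglycan gene, was at 33.5, 24.5, 37.6 and 37.3 CPM in MPTP-SU and at 76.5, 59.3, 33.7 and 46.2 CPM in MPTP-SU+S. In both, MPTP-SU+S replicates 1 and 2 were above every MPTP-SU library and replicate 3 lay among them.

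The same spread was seen in the list as a whole. Its summed level was 801 to 1122 CPM in MPTP-SU, and 1394, 1287, 816 and 968 CPM in MPTP-SU+S replicates 1 to 4. The median log2 difference was 0.30 with all libraries and 0.11 without MPTP-SU+S replicate 1, and 6 genes at an unadjusted p under 0.05 became 2. Without MPTP-SU+S replicate 3 there were 11. The transporter genes Slc13a4, Slc6a13 and Slc22a6 had log2 differences of 0.86, 0.57 and 1.05, and Ptgds, the prostaglandin D synthase gene, of 0.28. MPTP-SU+S was close to MPTP-Veh on this list, with a median log2 difference of 0.05. The median of MPTP-SU against MPTP-Veh was -0.32, with 15 of 20 negative, so MPTP-SU was the lower of these 2 groups. That of MPTP-SU+T against MPTP-SU was 0.41, with 17 of 20 positive, and that of MPTP-SU+S against MPTP-SU+T was -0.01. The summed level was 1023 to 1223 CPM in MPTP-Veh and 1004 to 1495 CPM in MPTP-SU+T. In Con it was 766 to 1061 CPM, which overlapped MPTP-SU, so MPTP-SU was not low against every other group. Scara3 and Itih2, on no list, were at 5.84 ± 0.51 and 8.75 ± 1.30 CPM (Scara3) and 4.54 ± 1.54 and 8.4 ± 1.95 CPM (Itih2) in MPTP-SU and MPTP-SU+S. The part of the meningeal genes' difference in these values was not tested.

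All 20 skeletal muscle genes had negative differences, with a median of -0.96. Only 1 was lower at an unadjusted p under 0.05 (5% against 2.75% of all tested genes), the muscle enolase gene Eno3. Tnni2, a fast troponin gene, was at 6.24, 9.96, 4.80 and 2.55 CPM in MPTP-SU and at 1.82, 0.77, 0.32 and 4.96 CPM in MPTP-SU+S. The summed level of the list was 137 to 279 CPM in MPTP-SU and 84.3 to 208 CPM in MPTP-SU+S, within the 73.1 to 390 CPM of MPTP-Veh. Gene by gene, the median log2 difference of MPTP-SU+S was -0.95 against MPTP-Veh and -0.43 against MPTP-SU+T. In each of these comparisons 19 of 20 genes were negative. Without MPTP-SU+S replicate 4 the median against MPTP-SU was -1.66. Eno3 is a member of this list. Des, a muscle-expressed gene outside it, was also lower in MPTP-SU+S, and the part of muscle tissue in either level was not tested.

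**Figure D4:**
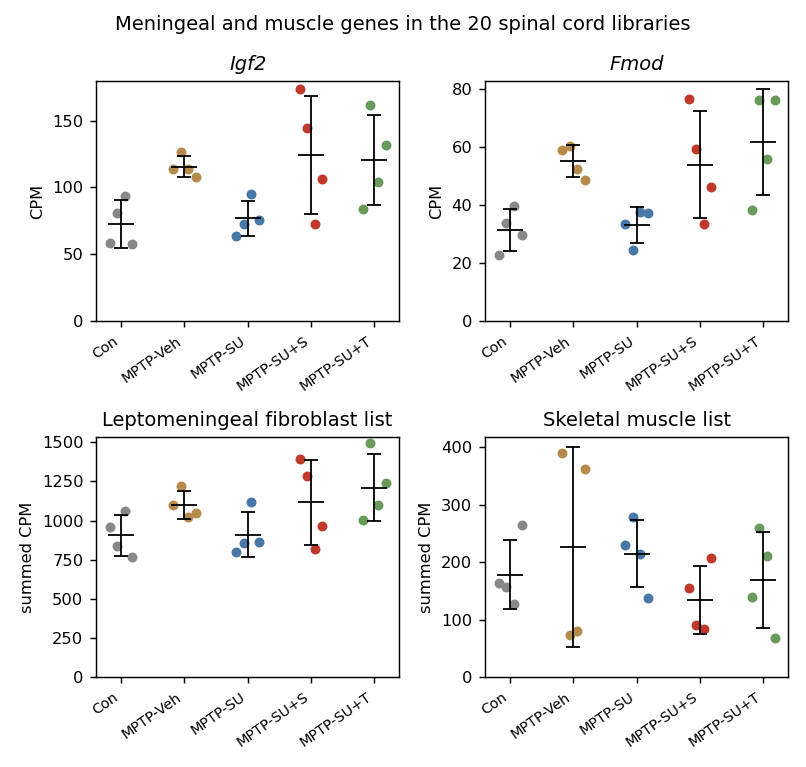
CPM of Igf2 and Fmod and summed CPM of the leptomeningeal fibroblast and skeletal muscle lists in each spinal cord library (points), with the mean and SD (bars). In MPTP-SU+S the meningeal values span 816 to 1394 CPM, wider than the 801 to 1122 CPM of MPTP-SU, and the muscle sums overlap between the groups.

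The lists of red blood cells, motor neurons and spinal roots had negative medians, and no gene in them passed the test. Of 12 red blood cell genes 3 were lower at an unadjusted p under 0.05 (25%, against 2.75% of all tested genes). Hba-a2, an α-globin gene, was at 165 ± 36 CPM in MPTP-SU and 107 ± 19 CPM in MPTP-SU+S.

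Of 15 motor neuron genes 14 had negative differences and 4 were lower at an unadjusted p under 0.05 (26.7% against 2.75% of all tested genes), among them Calca, above, and the neurofilament gene Nefm, at 3109 ± 245 and 2782 ± 107 CPM. Of 18 tested genes of spinal roots, Schwann cells and dorsal root ganglia 17 were negative and 3 were lower at an unadjusted p under 0.05 (16.7% against 2.75% of all tested genes). The 2 lists share Calca, Isl1, Nefh and Prph, and Calca counts in both and in the neuropeptide list, so these counts are not separate results. The median log2 difference of the root list was -0.22 against MPTP-SU and 0.05 against MPTP-Veh. That of MPTP-SU against MPTP-Veh was 0.26, with 16 of 18 positive, so gene by gene MPTP-SU was mostly the higher of these 2 groups. Sncg, a gene of sensory and motor neurons, was the first of the 3 genes with an unadjusted p under 0.05. It was at 82.1 ± 4.1 and 68.3 ± 4.5 CPM without overlap (log2 difference -0.26, adjusted p = 0.890). The root list's summed level was 13206 to 14992 CPM in MPTP-SU and 11997 to 14782 CPM in MPTP-SU+S. It was 13454 to 14772 CPM in MPTP-Veh and 12292 to 15229 CPM in Con, so the sums overlapped. The part of attached roots was not tested.

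Glial lists were near their starting level. Of 17 microglial genes 3 were at an unadjusted p under 0.05 (17.6% against 5.49% of all tested genes), 2 lower and 1 higher. Aif1, which encodes IBA1, was at 4.12, 3.76, 4.55 and 4.97 CPM in MPTP-SU and at 3.52, 2.38, 3.80 and 3.56 CPM in MPTP-SU+S (log2 difference -0.39, adjusted p = 0.899). Trem2, a lipid receptor of microglia, was at 3.11 ± 1.12 and 2.16 ± 0.44 CPM. The summed level of the list was 383 to 407 CPM in MPTP-SU and 383 to 401 CPM in MPTP-SU+S. Among 17 astrocyte genes 2 were at an unadjusted p under 0.05 (11.8%), 1 of them Sox9, with a log2 difference of -0.16, and among 18 oligodendrocyte genes 1 (5.56%), Olig1, with -0.10. The myelin gene Mag differed by -0.12. Blood vessel genes gave 1 of 20 (5%), ependymal and choroid plexus genes 2 of 12 (16.7%), Kl and Kcnj13, and circulating immune cells 1 of 11 (9.09%), the neutrophil granule gene Ngp, at 6.20 ± 3.33 and 2.78 ± 0.31 CPM.

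Set against MPTP-Veh, the mice without SUEHP, MPTP-SU+S also gave 0 DEGs (0%) by edgeR's quasi-likelihood test. There were 761 genes at an unadjusted p under 0.05 (4.56%), 348 higher (2.09%) and 413 lower (2.48%), and the smallest adjusted p was 0.963. DESeq2 gave 0 DEGs and 608 genes at an unadjusted p under 0.05. The comparison of MPTP-SU with MPTP-Veh had 0 DEGs as well, with 636 genes at an unadjusted p under 0.05 (3.81%), so this fit gave no set of genes called for SUEHP in the cord whose levels could be followed into MPTP-SU+S.

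As a description, the genes that separated MPTP-SU from MPTP-Veh with the smallest p-values were followed into MPTP-SU+S. Scara3, a scavenger receptor gene, was at 9.14 CPM in MPTP-Veh, 5.84 in MPTP-SU and 8.75 in MPTP-SU+S as means of 4. Hic2, a transcriptional repressor gene, was at 5.64, 3.58 and 4.62 CPM, and Gas1, a hedgehog co-receptor gene, at 6.93, 4.63 and 5.66 CPM. Trarg1, a gene of fat and muscle, was higher in MPTP-SU, at 0.50, 1.66 and 0.86 CPM, but 1 library carried most of this, and the log2 difference between MPTP-SU+S and MPTP-SU of -0.95 was -0.26 without MPTP-SU replicate 2. Since MPTP-SU was chosen as the extreme group for these genes, values nearer to MPTP-Veh in MPTP-SU+S are no test of a reversal.

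The 2 antagonist groups were compared directly. Between MPTP-SU+S and MPTP-SU+T there were 20 DEGs (0.12%), 11 higher (0.0659%) and 9 lower (0.054%) in MPTP-SU+S, in edgeR's quasi-likelihood test. Without the fold threshold there were 511 genes at an adjusted p under 0.05 (3.06%), 245 higher (1.47%) and 266 lower (1.59%). For 2181 genes (13.1%) every library of one group lay above every library of the other, 5.84% with MPTP-SU+S higher and 7.24% with it lower. Of the 511 genes 47.9% were higher, a share that became 95.9% higher of 366 genes when libraries were scaled to counts without mitochondrial and haemoglobin genes, and 65% of 20 genes with library size alone. The count rested on single libraries, since leaving out 1 of the 8 gave 1 to 51 DEGs, with 1 left without MPTP-SU+T replicate 3. MPTP-SU+T against MPTP-SU gave 4 DEGs (0.024%), 2 in each direction (0.012%).

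Genes encoded by mitochondrial DNA held the most calls of the 33 lists in this comparison. Of 13 tested, 11 were higher in MPTP-SU+S at an adjusted p under 0.05 (1.47% of all tested genes were), and the median log2 difference was 0.49, against -0.01 over all genes. ATP8, an ATP synthase subunit gene, was at 2945, 3555, 3992 and 3836 CPM in MPTP-SU+S and at 2169, 2289, 1921 and 2398 CPM in MPTP-SU+T. All 4 MPTP-SU+S libraries were higher, and the log2 difference was 0.71 (adjusted p = 0.0044). ND4, a complex I subunit gene, was at 19812 ± 3100 and 13087 ± 956 CPM (log2 difference 0.60, adjusted p = 0.0056). ND2 and COX1 had log2 differences of 0.55 and 0.41, and ND6, the complex I gene on the other strand, of -0.08 (adjusted p = 0.739).

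The share of all counts from these 13 genes was 14.8%, 17.4%, 17.9% and 18% in MPTP-SU+S and 11.0%, 13.6%, 12.2% and 13.5% in MPTP-SU+T, without overlap. It was 15.1% to 16.5% in MPTP-SU, 14.3% to 16.4% in MPTP-Veh and 12.4% to 14.2% in Con. MPTP-SU thus lay above MPTP-SU+T and overlapped MPTP-SU+S. Against MPTP-SU, 12 of the 13 genes were higher in MPTP-SU+S, with 0 at an unadjusted p under 0.05 (5.49% of all tested genes were). All 13 were lower in MPTP-SU+T than in MPTP-SU, 12 of them at an unadjusted p under 0.05 (6.01% of all tested genes were lower at it). MPTP-SU+T replicate 1 had both the lowest share and the lowest TMM factor of its group, 0.91.

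Dync1h1 and Map1a were lower in MPTP-SU+S than in MPTP-SU+T at an adjusted p under 0.05. Dync1h1, the dynein heavy chain gene of retrograde transport, was at 529, 512, 536 and 547 CPM in MPTP-SU+S and at 659, 597, 652 and 629 CPM in MPTP-SU+T (log2 difference -0.26, adjusted p = 0.0044). Map1a, a microtubule protein gene, was at 1609, 1522, 1580 and 1577 CPM in MPTP-SU+S and at 1890, 1780, 2113 and 1962 CPM in MPTP-SU+T (log2 difference -0.30, adjusted p = 0.0056). The groups did not overlap for either gene, and neither reached 1.5-fold. Both were named after their values were seen.

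Nat1, Zfp934, Trpm4, Lingo4 and Adprs were among the DEGs. Nat1, an arylamine acetyltransferase gene, was at 3.40, 2.51, 2.64 and 3.31 CPM in MPTP-SU+S and at 1.43, 1.62, 1.27 and 1.37 CPM in MPTP-SU+T (log2 difference 1.05, adjusted p = 0.0139). Zfp934, a zinc-finger gene, was at 6.80, 7.79, 6.90 and 6.80 CPM in MPTP-SU+S and at 4.51, 4.52, 4.54 and 3.98 CPM in MPTP-SU+T (log2 difference 0.69, adjusted p = 0.0107). Trpm4, a calcium-activated cation channel gene, was at 4.37, 4.31, 3.61 and 4.07 CPM in MPTP-SU+S and at 6.23, 6.55, 6.48 and 6.03 CPM in MPTP-SU+T (log2 difference -0.63, adjusted p = 0.0191). Lingo4 and Adprs were lower, with log2 differences of -0.73 and -0.62. In all 5, the groups did not overlap. Neither compound was given alone, their doses and targets differed, and the difference between the groups therefore compares 2 added treatments on the same background.

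**Figure D5:**
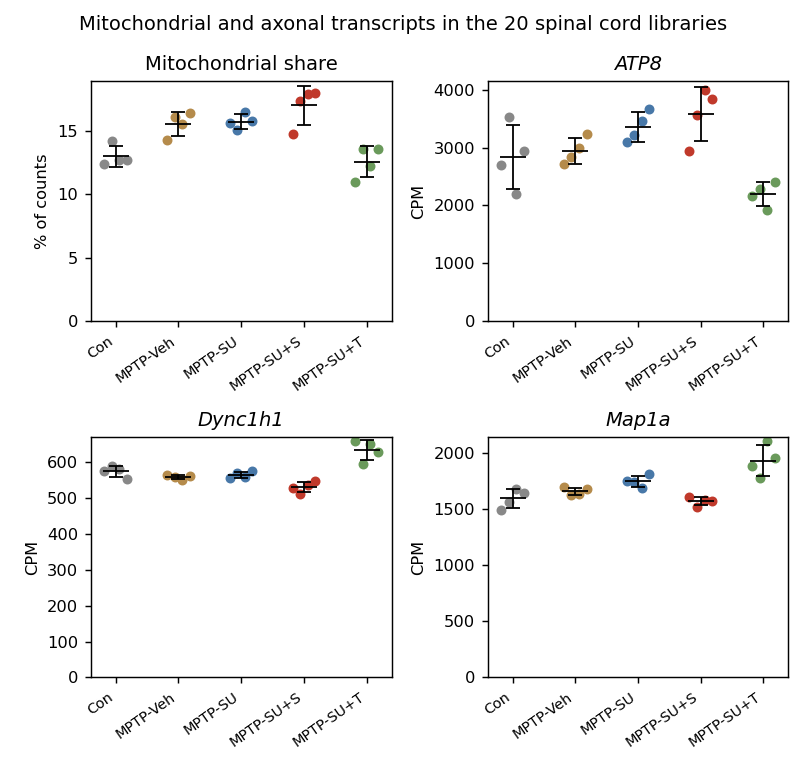
Mitochondrial share of counts (percent) and CPM of ATP8, Dync1h1 and Map1a in each spinal cord library (points), with the mean and SD (bars). MPTP-SU+S lies above MPTP-SU+T in the upper panels and below it in the lower panels without overlap, and MPTP-SU lies between their means in all 4.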

How the data were processed

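Poly(A) RNA of spinal cord and midbrain was sequenced in 40 libraries, 4 in each of 5 groups per tissue. The submitters' processing notes name fastp, STAR and Salmon for trimming, alignment and quantification, and GRCm39 as the build. The annotation is not given in the sources used here. The values the authors deposited are estimated counts per gene symbol, given as whole numbers and used as deposited. The notes also name GATK, without a role.

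All 20 spinal cord libraries were fitted in one model of group with edgeR 4.0.16 in R 4.3.3, after filterByExpr and TMM, with glmQLFit and glmQLFTest. A DEG had a Benjamini-Hochberg adjusted p under 0.05 and a fold change over 1.5. Standard errors are the log2 fold change over the root of F. Intervals cover 95%. DESeq2 1.42.0, limma 3.58.1, other scalings, filters, a replicate term and leaving out each library were alternatives. The fit was tested on simulated counts. Totals were 14642808 to 16615378 counts per spinal cord library, and intervals and SDs rest on 4 libraries a group.

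Named genes were the 10 per direction with the smallest p among non-overlapping genes past 1.5-fold with a mean of at least 1 CPM, receptor and pain genes set from the study, 2 members with the smallest p of each list, and genes separating MPTP-SU from MPTP-Veh. Others are said to be chosen after their values were seen, as were the clock, endocannabinoid and meningeal genes beyond 2 per list and the genes of the comparison with MPTP-SU+T. Comparison, members and lists were chosen with earlier results of these data known. Promoter windows came from RefSeq on GRCm38.p6. No coordinates were joined to the files. Some genes that the rule selects are not reported here.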

Additional observations from a re-analysis of the deposited data

Results flagged for a closer look

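The 2 antagonist groups differed when tested against each other, with 20 DEGs between MPTP-SU+S and MPTP-SU+T. Among those named, the log2 difference (MPTP-SU+S minus MPTP-SU+T) was 0.71 for ATP8, 0.60 for ND4, 0.69 for Zfp934, 1.05 for Nat1, 2.04 for Gm2026 and 6.06 for Fam220a, and it was -0.62 for Adprs, -0.63 for Trpm4 and -0.73 for Lingo4. The Fam220a value rests on libraries at 263 to 289 counts in MPTP-SU+S, with 1 at 0, against 0 to 4 counts in MPTP-SU+T, and 3 of the 4 MPTP-Veh libraries held 5 to 15.

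Single libraries stood far from the other 3 of their group in 14 of 210 groups of 4 examined, where chance would mark about 1 in 20. In MPTP-SU these were Nr1d2 at 129 CPM in replicate 2, Ifit2 at 17.5 CPM in replicate 2, Slc13a4 at 7.65 CPM in replicate 3, and St6galnac3 at 24.9 CPM in replicate 4. In MPTP-SU+S they were ND4 at 15212 CPM and Klf5 at 5.58 CPM in replicate 1, Socs3 at 1.67 CPM and Zfp934 at 7.79 CPM in replicate 2, Calca at 14.4 CPM and Slc22a6 at 0.90 CPM in replicate 3, and Fam220a at 0 CPM in replicate 4. In MPTP-SU+T they were Gm2026 at 9.83 CPM and Zfp934 at 3.98 CPM in replicate 4, and Fam220a at 0 CPM in replicate 2. MPTP-SU+S replicate 1 also held the highest meningeal sum and the lowest mitochondrial share of its group, 14.8%.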

How the results depend on the processing

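The absence of DEGs between MPTP-SU+S and MPTP-SU held under the alternatives except without the low-count filter, which gave 2 (Cers1 and Gm20517), and without MPTP-SU+S replicate 2, which gave 1 (Evi2b), so leaving out 1 library gave 0 to 1. Against MPTP-Veh the count was 1 without the filter and 0 to 0 when libraries were left out. The genes at an unadjusted p under 0.05 and past 1.5-fold numbered 595 without the filter, where 28776 genes were tested, 62 with at least 10 counts in every library, and 166 to 203 when 1 library was left out. DEGs between MPTP-SU+S and MPTP-SU+T numbered 511 with the adjusted p alone, 3 with library size alone, 39 without the filter, 5 in DESeq2, and 1 to 51 with 1 library left out (51 without MPTP-SU+S replicate 1, 6, 3 and 4 without replicates 2, 3 and 4, and 9, 33, 1 and 10 without MPTP-SU+T replicates 1 to 4). Same-numbered libraries of MPTP-SU+S and MPTP-SU did not deviate together (correlations -0.108 to 0.009, against -0.086 to 0.101 for differently numbered ones). These values showed no pairing by number and, being taken over all genes at once, cannot exclude one. With the replicate block the DEGs were 0 against MPTP-SU, 0 against MPTP-Veh and 34 against MPTP-SU+T. The clock count of 9 was 5 with library size alone and 5 to 8 with 1 library left out, lowest without MPTP-SU replicate 3. The muscle median was -0.61 with at least 10 counts in every library. Clock, meningeal, muscle and mitochondrial lists were recomputed after their values were seen, as was a fit without Con replicates 1 and 2 and MPTP-SU+T replicate 1, which gave 0 DEGs. Of the gene values recomputed, 1611 of 1664 kept their direction and call. Mapk14 was -0.0108 with library size alone. With 1 library left out, log2 differences ran from -0.0552 to 0.199 for Fos, -0.0323 to 0.0586 for Mapk14, -0.0423 to 0.0761 for Gfap, -0.0882 to 0.0258 for Faah and -0.0327 to 0.00378 for Dagla. The cause of these changes was not tested. At this depth and 4 libraries a group, the interval lay within 1.5-fold for 0.24% of genes under 1 CPM.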

Other observations

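Some genes were listed at 0 or nearly 0 in one library and at many counts in another of the same group. Their fold changes therefore rest on libraries that differ widely within a group. Among the 8 libraries, 52 genes held at most 1 count in 1 library and at least 30 in another of its group, and 44 of them were among the genes tested. Cers1, a ceramide synthase gene, was at 0, 460, 499 and 0 counts in MPTP-SU+S and at 0 in the other 16 spinal cord libraries. Evi2b was at 0, 47, 0 and 0 counts in MPTP-SU+S and at 62, 36, 50 and 47 in MPTP-SU, and 1 MPTP-Veh library was at 0 as well. Fam220a was at 289, 276, 263 and 0 counts in MPTP-SU+S, at 280, 206, 321 and 240 in MPTP-SU and at 4, 0, 4 and 4 in MPTP-SU+T. These 3 genes and the 2 limits were chosen after the values were seen.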
